A study of Mus musculus with 11 samples.

Results

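Within the marginal class of E-mu-BRD2 mouse lymphomas, the tumours of animals with a moderately enlarged spleen were compared with those of animals whose spleen was graded lower. The comparison used 6 of the 11 arrays analysed: 2 arrays of animals graded moderate (marginal samples 5 and 6) against 4 arrays of animals graded marginal (marginal 1) or mild (marginal 2, 3 and 4). The remaining 5 arrays were transitional lymphomas of animals that failed to nest, with spleens graded mild (transitional 3), moderately severe (4 and 5) or severe (1 and 2), and were used as values only. All animals were on the FVB background and carried BRD2 under E-mu, the immunoglobulin heavy chain enhancer, which directs expression to lymphocytes of the B lineage, and every tumour was labelled oligoclonal. There was no array of non-transgenic tissue in these groups. The recorded signs of illness were a neck tumour (marginal 1), failure to nest (marginal 2 and 3), a leg tumour (marginal 4), a haunch tumour (marginal 5) and paralysis (marginal 6), so no sign was recorded in both grades and grade cannot be told apart from it. The labels do not state the tissue that gave the RNA, the age of the animals, or a batch. Each array is 1 sample. The limma p-values set a difference against the spread between these samples, moderated with the spread of all other probe sets.

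BRD2 is a bromodomain protein that binds acetylated histones and takes part in transcription of cell cycle genes. A mouse spleen holds lymphocytes and also makes red cells, granulocytes and platelets. In bulk RNA, fewer cells of a type and less RNA per cell cannot be told apart. Immunoglobulin transcripts carry the variable segments that a clone has rearranged, which gives each B cell tumour its own set.

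Both moderate arrays differed sharply from all 4 lower arrays in a small set of transcripts. Ms4a4b, a gene of a 4-transmembrane protein family expressed in T cells, was the largest rise. A probe set of the class I histocompatibility gene H2-D1, Nme1, Lmo7 and Il5ra also rose. Immunoglobulin kappa variable segments, a group of Ighm probe sets and genes of macrophages and granulocytes fell, among them Ear3, Ccl9, Ccl6, Pla2g7, Lgals3 and Lyz2. With limma and Benjamini-Hochberg adjustment at 0.05, 18 of 22626 probe sets were called higher (0.0796%) and 37 lower (0.164%). These stood for 12 named genes higher and 20 lower, the others having several genes or none in the annotation. The arrays of the 2 grades did not overlap in 2703 probe sets that were higher (11.9%) and 2140 that were lower (9.46%). The distance between the nearest moderate and lower arrays, here called the gap, was at least 1 on the log2(signal + 16) scale in 99 probe sets higher (0.438%) and 151 lower (0.667%). The 55 called probe sets were all among these, but the 37 lower calls were all lost when marginal 6 was left out or the transitional arrays entered the fit. An exact permutation test of a value on 2 against 4 arrays has 15 arrangements, and its smallest two-sided p is 0.133, so single values have no such test.

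**Figure D1:**
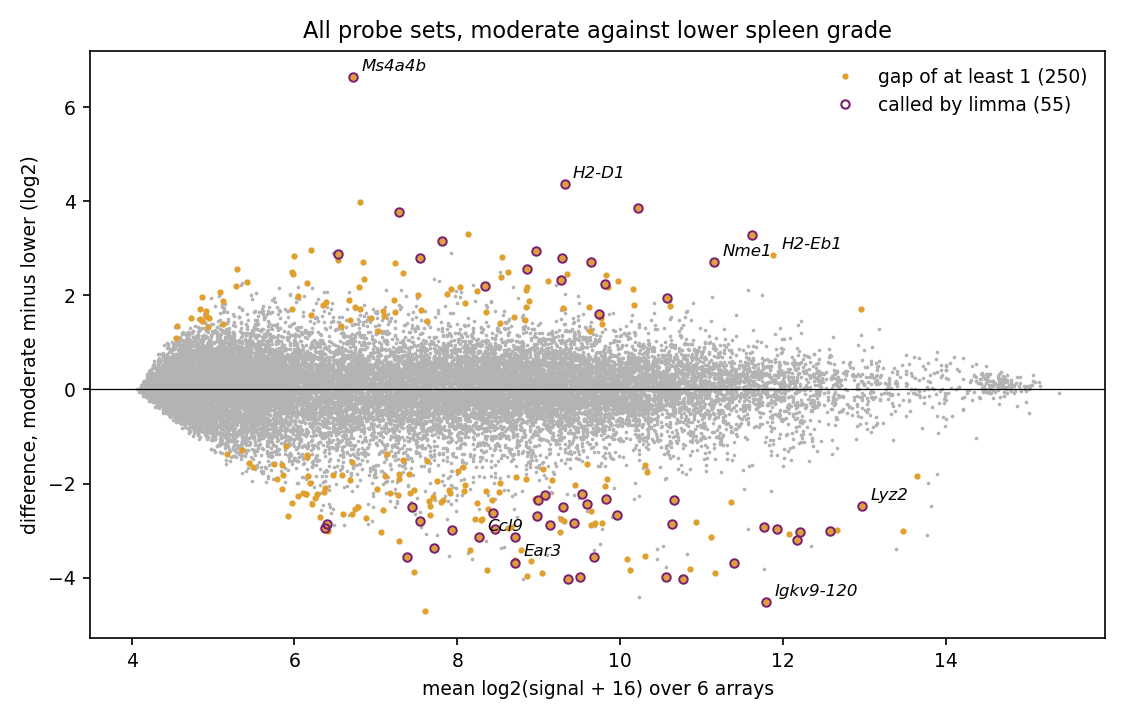
Difference between moderate and lower arrays (log2, positive where moderate is higher) against the mean log2(signal + 16) over 6 arrays, for 22626 probe sets in grey. Orange points are the 250 probe sets with a gap of at least 1, open circles the 55 called by limma, and Ms4a4b lies alone at 6.63.

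In the order marginal 1 to 4 and then 5 and 6, which is kept below, Ms4a4b read 2.8, 10.1, 7.6 and 7.3 on the lower arrays and 1825 and 2749 on the moderate arrays. The lower arrays therefore sat at the floor of the scale while both moderate arrays were well above their array medians (119 to 144 over the 6 arrays). The difference was 6.63 log2 units (SE 0.40, limma adjusted p 0.000918), and it stayed called when any of the 6 arrays was left out. The other probe set of the gene, dimmer on the moderate arrays, was higher by 1.55 with an adjusted p of 0.235. On the transitional arrays the brighter probe set read 11.9, 5.4, 3430.2, 2.8 and 2.4, so transitional 3 resembled the moderate arrays and the other 4 the lower arrays. Fitted with all 11 arrays, whose transitional values differ among themselves, the Ms4a4b difference had an adjusted p of 0.326. Ms4a4b was the single member of the T cell list that was called: of 16 measured T cell genes, 13 were lower and 3 higher (median -0.79). Lower without overlap were 3 of the 16 (18.75%, against 9.63% of all genes). The summed signal of the list overlapped between grades, at 5758 to 16465 on the lower arrays and 9119 to 10838 on the moderate arrays. Cd3d, a chain of the T cell receptor complex, read 1376, 2529, 2556 and 3267 and then 1050.0 and 985, and Thy1 read 279.7, 223, 490.4 and 251 and then 120.3 and 90.7, neither of them called.

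The 250 bases before the RefSeq start of Ms4a4b and of the neighbouring chemokine genes Ccl9 and Ccl6 are shown because Ms4a4b is the largest rise and the chemokine pair fell together. They were read from GRCm38.p6 on the strand of the gene, 5′ to 3′. Capitals mark GAGGAA (or TTCCTC on the other strand), the core bound by PU.1, an ETS factor of B cells and myeloid cells. Ms4a4b lies on the plus strand (chr19:11443308-11443557), Ccl9 on the minus strand (chr11:83578637-83578886) and Ccl6 on the minus strand (chr11:83593088-83593337).
Ms4a4b: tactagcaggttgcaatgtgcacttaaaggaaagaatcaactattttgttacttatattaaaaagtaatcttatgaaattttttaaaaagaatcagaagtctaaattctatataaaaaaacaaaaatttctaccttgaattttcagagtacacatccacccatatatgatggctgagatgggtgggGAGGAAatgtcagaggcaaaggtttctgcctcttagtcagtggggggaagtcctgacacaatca
Ccl9: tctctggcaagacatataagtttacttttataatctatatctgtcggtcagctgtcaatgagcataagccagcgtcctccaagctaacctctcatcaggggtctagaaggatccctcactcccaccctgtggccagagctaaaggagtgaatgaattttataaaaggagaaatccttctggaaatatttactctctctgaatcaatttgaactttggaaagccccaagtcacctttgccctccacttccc
Ccl6: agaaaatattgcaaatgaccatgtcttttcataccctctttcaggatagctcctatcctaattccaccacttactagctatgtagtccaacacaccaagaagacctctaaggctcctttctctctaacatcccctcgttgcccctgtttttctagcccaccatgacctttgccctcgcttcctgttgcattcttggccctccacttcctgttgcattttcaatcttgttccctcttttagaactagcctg
The start sites of Ccl9 and Ccl6 lie 14451 bases apart. The Ms4a4b window holds 1 copy of these letters, and the Ccl9 and Ccl6 windows hold 0 copies. Over all RefSeq genes with such windows, 25.9% hold it, against 2 of 11 matched genes called higher and 2 of 13 matched genes called lower. TTGCNNAA (or TTNNGCAA), which fits sites of the granulocyte and macrophage factors of the C/EBP family, is in 10.8% of all genes and in 0 of the 11 and 0 of the 13. A match is a description of the sequence and not a site.

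Histocompatibility genes differed by probe set. The H2-D1 probe set 1450170_x_at read 145, 261, 228 and 258 on the lower arrays and 5888 and 3871 on the moderate arrays, a rise of 4.36 (SE 0.32, limma adjusted p 0.00161) that was called in all 6 leave-one-out fits. It read 9722, 10139, 345, 129 and 2504 on the transitional arrays. The brightest of the 9 H2-D1 probe sets, 1425545_x_at, read 16341, 21126, 16395 and 26436 and then 15429 and 11387, a difference of -0.57 (adjusted p 0.517). Of the 9 probe sets 4 were higher, 4 lower and 1 level, and 1 was called. The other higher ones were dim, at 1.72, 1.40 and 1.77, and the first of these read 38.5, 50.5, 50.9 and 33.2 and then 305 and 102. The probe sets of H2-D1 therefore disagree in direction, and the reason was not tested. H2-Eb1, the beta chain of the class II molecule I-E, read 986, 2521, 1346 and 4158 and then 17476 and 11214. This difference of 2.85 (SE 0.52) had a wide gap but an adjusted p of 0.0849 and was not called. H2-Eb1 read 14222, 15639, 3848, 568 and 3647 on the transitional arrays, where H2-D1 1450170_x_at was also highest on transitional 1 and 2. The other class II genes showed no such gap: H2-Aa read 19325, 27203, 21842 and 36551 and then 29228 and 22457, and H2-Ea, the partner chain of I-E, read 1013, 1890.4, 1856 and 1926 and then 809.8 and 1121. The median over 9 class II genes was -0.21, with 3 higher and 6 lower. That over 11 class I and peptide loading genes was -0.12.

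Some genes of B cell subsets and activation separated the grades. Il5ra, the interleukin-5 receptor alpha chain found on B1 cells and eosinophils, rose from 149, 172, 299 and 407 to 2027 and 1836 (2.94 log2, SE 0.40, limma adjusted p 0.0275). Zbtb32, a repressor expressed in activated and B1 cells, read 144, 202, 501 and 598 and then 1640.5 and 1538, with a difference of 2.31 and an adjusted p of 0.154. Cd80, a ligand of the T cell costimulatory receptor CD28, read 26.1, 32.2, 46.0 and 96.5 and then 350.0 and 418 (adjusted p 0.083) in the Cd80 probe set with the largest difference. The brightest of the 4 Cd80 probe sets differed by 1.45 (adjusted p 0.18), and in 2 others, at 0.66 and 0.42, the grades overlapped. Of these 3 genes Il5ra was called. Across 11 measured B1 genes, 4 were higher without overlap, 3 lower without overlap and the median was 0.32, so the list did not move as a block. Over all 12393 genes, with 1 probe set each, 11.5% were higher and 9.63% lower without overlap, and the median was 0.02. The B1 marker Cd5 read 277, 484, 411 and 950.2 and then 514 and 104. Itgam, the gene of CD11b, read 1947, 455, 831 and 383 and then 206 and 59.6, and neither gene was called. Marginal 6, the 1 sample of these 6 with flow cytometry in its label (B220, CD5 and CD11b positive), had the lowest signal of the 6 arrays for both and for Ptprc, the gene of B220, at 13828 and 6926 for marginal 5 and 6 against 7413, 16514, 13314 and 19912 on the lower arrays.

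Other rises came from genes with unrelated roles. Lmo7, a LIM domain protein of cell junctions, rose from 114, 91.8, 73.3 and 94.7 to 1055 and 853 (3.15, SE 0.33, limma adjusted p 0.00986). The Nme1 probe set 1435277_x_at, for a nucleoside diphosphate kinase, rose from 1038, 1053, 1392 and 1382 to 7125 and 8909.9, while the brighter Nme1 probe set differed by 0.56 (adjusted p 0.432). Gas5, a non-coding host transcript of small nucleolar RNAs that accumulates when growth slows, rose from 291, 401, 751 and 337 to 3006 and 2609. All 4 Gas5 probe sets were higher, by 1.36 to 2.71, and 1 of them was called. Ahnak, a very large scaffold protein, rose from 891, 843, 1102 and 1027 to 4038 and 3482, and 3 of its 4 probe sets were higher. Mcoln2, an endolysosomal cation channel of lymphocytes, rose from 215, 341, 558 and 349.9 to 1732 and 1863, and Pafah1b3, a catalytic subunit of platelet-activating factor acetylhydrolase, from 395, 411, 872 and 521 to 2374 and 2739. Zbtb20, a transcriptional repressor, rose by the least of the called genes, 1.61 (adjusted p 0.046), with the other 2 of its 3 probe sets also higher. Rbm26, an RNA-binding protein, and Etl4 were called as well, at 2.19 and 2.87. The brightest of the 3 Rbm26 probe sets differed by 1.03 (limma adjusted p 0.196). Adm, the vasodilator peptide adrenomedullin, read 43.6, 62.8, 209 and 258 and then 1027 and 1587, and Pard3b, a cell polarity protein, read 98.4, 59.3, 49.9 and 108 and then 597 and 412. Both had gaps of over 1 and adjusted p-values of 0.0875 and 0.0634.

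**Figure D2:**
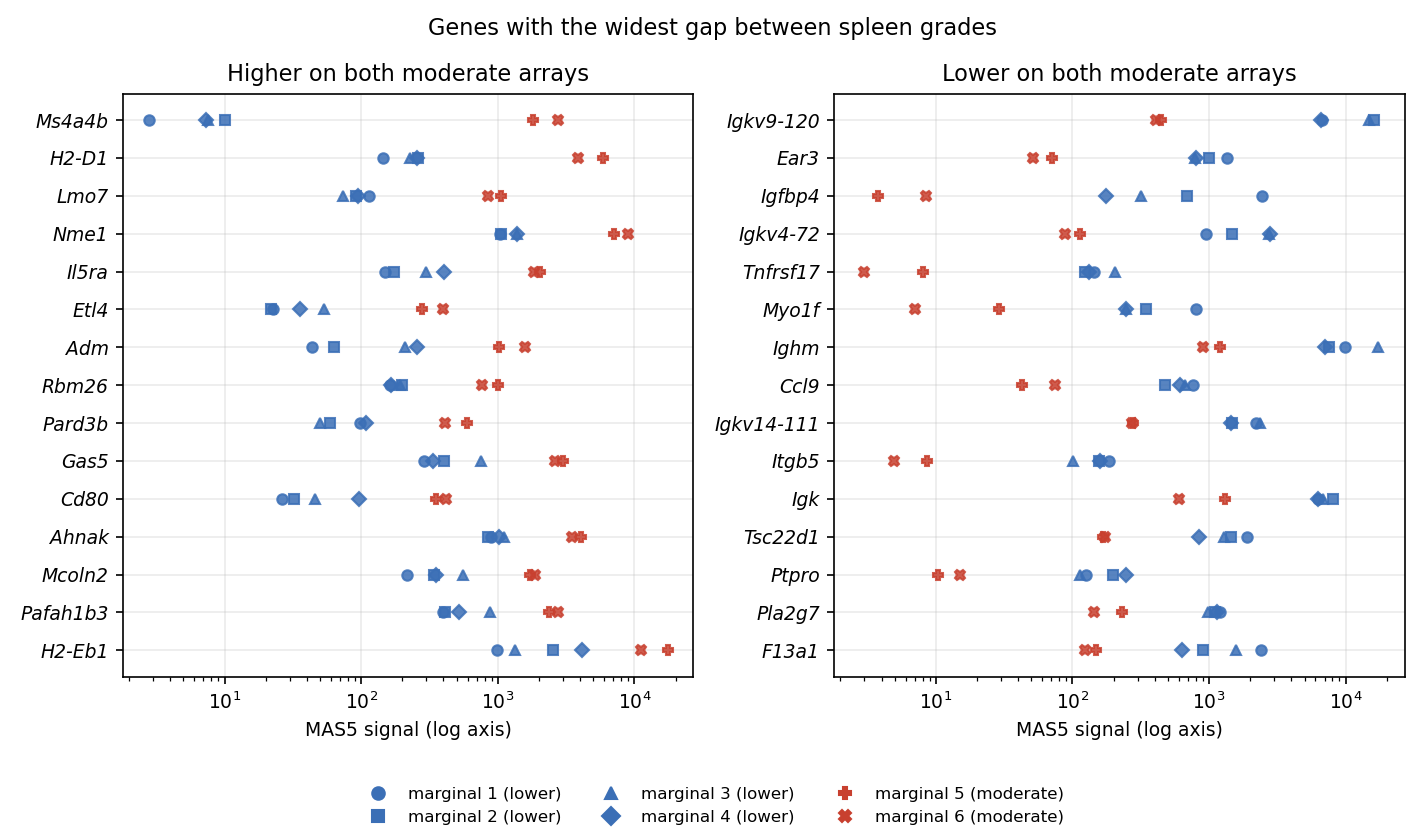
MAS5 signal (log axis) on each of the 6 arrays for the 15 genes higher and the 15 lower on both moderate arrays with the largest gap, blue for the 4 lower and red for the 2 moderate arrays. The grades do not overlap in any of these genes, which were chosen by the gap, and Ms4a4b spans the widest range, from 2.8 to 2749.

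Some of the most separated probe sets carry no usable gene name and were picked after their values were seen. Probe set 1427820_at read 452, 527, 417 and 502 and then 10286 and 4795, and 460.1, 611, 513, 516 and 450.2 on the transitional arrays. It was high on both moderate arrays and at 417 to 611 on the other 9. Its difference of 3.85 (SE 0.32, limma adjusted p 0.00342) stayed called in all 6 leave-one-out fits and with all 11 arrays, where the adjusted p was 0.000544. Probe set 1439200_x_at, at 316, 238, 445 and 278 and then 2834 and 1796, was the other higher call that the 11-array fit kept. Probe set 1424931_s_at, annotated to more than 1 immunoglobulin lambda gene, rose from 959.8, 1044, 2177 and 2090.4 to 21918 and 9443, and read 3502, 3537, 3996, 686 and 231 on the transitional arrays. Its 3.28 (adjusted p 0.0282) went in the opposite direction to the kappa segments.

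Immunoglobulin transcripts were prominent among the falls. Igkv9-120, a kappa light chain variable segment and the largest called fall, went from 6674, 16141, 14697 and 6621 to 445 and 407 (-4.52 log2, SE 0.41, limma adjusted p 0.00483). Igkv4-72 fell from 955, 1462, 2736 and 2784 to 113 and 88.0, and Igkv14-111 from 2206, 1459, 2364 and 1448 to 276 and 275. All 4 lower arrays were high in these segments and both moderate arrays low. On the transitional arrays Igkv9-120 read 12724, 54.5, 449, 1822 and 3137 and Igkv14-111 read 5467, 66.8, 16024, 409.9 and 333, a wider spread than within either grade. Of 4 probe sets named Igk, the kappa complex, 2 fell, and the brightest went from 6297, 8109.6, 6835 and 6298 to 1311 and 606. These genes are close copies of each other, and how far their probes cross-hybridise was not tested.

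Ighm, the heavy chain gene of IgM, fell in 5 of its 11 probe sets and not in the brightest. Probe set 1425324_x_at went from 9836, 7550.4, 17161 and 7064 to 1207 and 899.6 (-3.20, SE 0.37, limma adjusted p 0.0116). The brightest, 1427329_a_at, read 32848, 28942, 34479 and 44424 and then 33415 and 24719, a difference of -0.27 (SE 0.33, adjusted p 0.791) with overlapping grades. The gene's call therefore depends on the probe set. Igha, the IgA heavy chain gene, read 19703, 24128, 22470.0 and 40139.8 and then 16164 and 1288, with marginal 6 far below marginal 5. Ighg3 read 3156, 8704, 27169.9 and 4126 and then 2621 and 8934, and its grades overlapped.

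Plasma cell genes were mostly lower. Tnfrsf17, the BCMA receptor of plasma cells, fell from 143, 124, 206 and 133 to 8.0 and 3.0 (-2.95, SE 0.41, limma adjusted p 0.0316). Jchain, which joins IgM and IgA into polymers, read 20355, 20828, 23179.8 and 27728 and then 6486 and 1248 (adjusted p 0.0849). Sdc1, the plasma cell surface proteoglycan CD138, read 443, 329.5, 375 and 363 and then 95.7 and 54.4. Xbp1, the transcription factor of secretory cells, read 7686, 5784, 8356 and 5447 and then 2808 and 3718, and these 4 genes did not overlap between grades. Irf4, also needed for plasma cells, read 1385, 1021, 1006 and 820.1 and then 901 and 1029 and did overlap. Over the list, 11 of 13 measured genes were lower, 5 of them without overlap (38.5%, against 9.63% of all genes). A gap of at least 1 was found in 3. The median was -0.74, and 1 gene was called.

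B cell identity did not separate the grades. Of 16 measured genes 8 were higher and 8 lower, the median was 0.08, and 1, Blk, a Src-family kinase of B cells, did not overlap (1219.9, 3695, 2018 and 3481 and then 7006 and 4669). Ms4a1 (CD20) read 7589, 16536, 13637 and 22747 and then 23162 and 17645, with marginal 1 the lowest. The median of this list changed sign in 4 of 14 alternative settings. These settings are not all distinct: list medians are unchanged by construction with all 11 arrays, and mild arrays alone as the lower group is the same as leaving out marginal 1. Genes of immature B cells were lower in 9 of 11, 6 without overlap (54.55%, against 9.63% of all genes). Vpreb3, a protein of the pre-B cell receptor pathway, read 355, 977, 298 and 1063 and then 122 and 39.2, and Cd93 read 261, 82.9, 94.1 and 77.0 and then 9.2 and 14.8, but 5 of the 11 were below signal 100 on all 6 arrays and 0 were called. Genes of marginal zone B cells, a resident B cell type of the spleen, were lower in 7 of 8, 3 without overlap (median -1.13). Their summed signal was 23263 on marginal 5, within the lower arrays (16088 to 27647), and 15091 on marginal 6. Among these genes Hes1, a Notch target, read 208, 349, 160.4 and 428 and then 94.2 and 105. The germinal centre repressor Bcl6 read 529, 656, 226 and 513 and then 125 and 65.9 (adjusted p 0.132), and 3 of the 7 germinal centre genes were lower without overlap and 0 higher without overlap. The median of that list was 0.08, but it ran from -1.17 to 0.33 and changed sign in 5 of 14 alternative settings. None of these lists held a gene called by limma.

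Genes of macrophages and monocytes fell or lay lower on the moderate arrays. Of 20 measured, 19 were lower, 10 of them without overlap (50.0%, against 9.63% of all genes). A gap of at least 1 was found in 3, the list median was -1.24, and 2 were called. Lyz2, the lysozyme of macrophages and neutrophils, fell from 20625, 10956, 17325 and 10654 to 3306 and 1962 (-2.48, SE 0.36, limma adjusted p 0.0374). On the transitional arrays Lyz2 read 2805, 20761, 8567, 14576 and 13846. Lgals3, galectin-3, fell from 5818, 2456, 3250.1 and 1916 to 506 and 329 (-2.86, SE 0.42, adjusted p 0.0372). Ccr2, the receptor that recruits monocytes, read 445, 545, 704 and 602 and then 84.0 and 199 without overlap. Not every macrophage gene followed: Cd68 read 743, 780.1, 568 and 1072 and then 586 and 719, and Adgre1 (F4/80), a marker of spleen macrophages, was highest of all 6 on marginal 5 at 633. The separate list of complement C1q and C3 genes did not separate the grades. Of its 5 measured genes 4 were lower, 0 without overlap, with a median of -0.2.

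The chemokines Ccl9 and Ccl6, made by myeloid cells, fell together. Ccl9 fell from 765, 478, 667 and 612 to 43.0 and 74.1 (-3.13, SE 0.33, limma adjusted p 0.00986), and its other probe set fell by 2.69 with the same adjusted p. Ccl6 fell from 1089, 1372, 1473 and 1005 to 307 and 202, with an adjusted p of 0.0242 in 1 of its 2 probe sets, the other being at -1.74. On the transitional arrays Ccl9 read 79.0, 226, 239.7, 469 and 916 and Ccl6 267, 1604, 1068, 488 and 580.3. Of 27 chemokine and receptor genes measured, 16 were lower and 11 higher (median -0.29), so the list did not fall as a block. Lower without overlap were 5 (18.52%, against 9.63% of all genes), and higher without overlap 2 (7.407%, against 11.5%). A gap of at least 1 was found in 3 of the lower genes, and 2 were called. Pla2g7, a macrophage phospholipase that breaks down platelet-activating factor, fell from 1195, 1113, 983 and 1142 to 230.2 and 143, and Ear3, an eosinophil-associated ribonuclease, from 1345, 1003, 790.0 and 808 to 70.8 and 51.6 (-3.68, SE 0.32, adjusted p 0.00394). Myo1f, a myosin of leukocytes, fell from 802, 347, 247 and 248 to 29.0 and 7.0. F13a1, a coagulation factor subunit of macrophages and platelets, read 2381, 901, 1585 and 633 and then 148 and 124 with an adjusted p of 0.0503, just above the threshold.

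Granulocyte genes were lowest on the moderate arrays but varied widely among the lower ones. All 15 measured secondary granule and neutrophil genes were lower, 11 without overlap, with a median of -3.07. Over all genes, 9.63% were lower without overlap. Camp, the cathelicidin antimicrobial peptide, read 25584, 7981, 18459 and 1326 and then 794 and 425, and Ngp read 30934, 9481, 25287 and 2161 and then 1228 and 999.8. Chil3, a chitinase-like protein of myeloid cells, read 14397, 2563, 11745 and 920.5 and then 212 and 429. In each of these marginal 1 and 3 were highest and marginal 4 nearest to the moderate arrays, and apart from Lyz2, a member of both lists, none was called. Primary granule genes had a median of -3.35 with 7 of 8 lower, but 1 without overlap, Hp (10242, 1374, 4706 and 758 and then 276 and 107). Mpo, the myeloperoxidase of granulocyte precursors, read 21288, 1409.5, 10122 and 333 and then 404 and 152, so marginal 4 lay between the moderate arrays. Mast cell and basophil genes were lower in 10 of 11, 5 without overlap, but 5 of the 11 were below signal 100 on all 6 arrays and none was called by limma.

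Platelet genes separated the grades with less spread. Of 12 measured, 11 were lower, 9 of these without overlap (75.0%, against 9.63% of all genes), and the median was -1.18. Ppbp, a platelet chemokine, fell from 388, 664, 1002 and 851 to 46.3 and 114 (-2.96, SE 0.45, limma adjusted p 0.0437). Pf4, platelet factor 4, read 1049, 623, 833 and 542 and then 241 and 363. All 4 lower arrays, marginal 4 included, were above both moderate arrays in these. On the transitional arrays Ppbp read 44.8, 2006, 104, 829 and 93.5 and Pf4 read 160, 1962.5, 287.5, 1009 and 1047, so neither was low on every array of higher grade. Red cell genes placed marginal 4 close to the moderate arrays. Klf1, the master regulator of erythroid genes, read 6257, 4454, 8726 and 1408 and then 1259.8 and 1349.6. Among erythroid regulators 13 of 13 were lower, 6 without overlap (median -1.01). In the red cell membrane list 12 of 12 were lower and 0 were without overlap (median -0.83), while among 9 haem and globin genes 2 were without overlap (median -0.91).

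**Figure D3:**
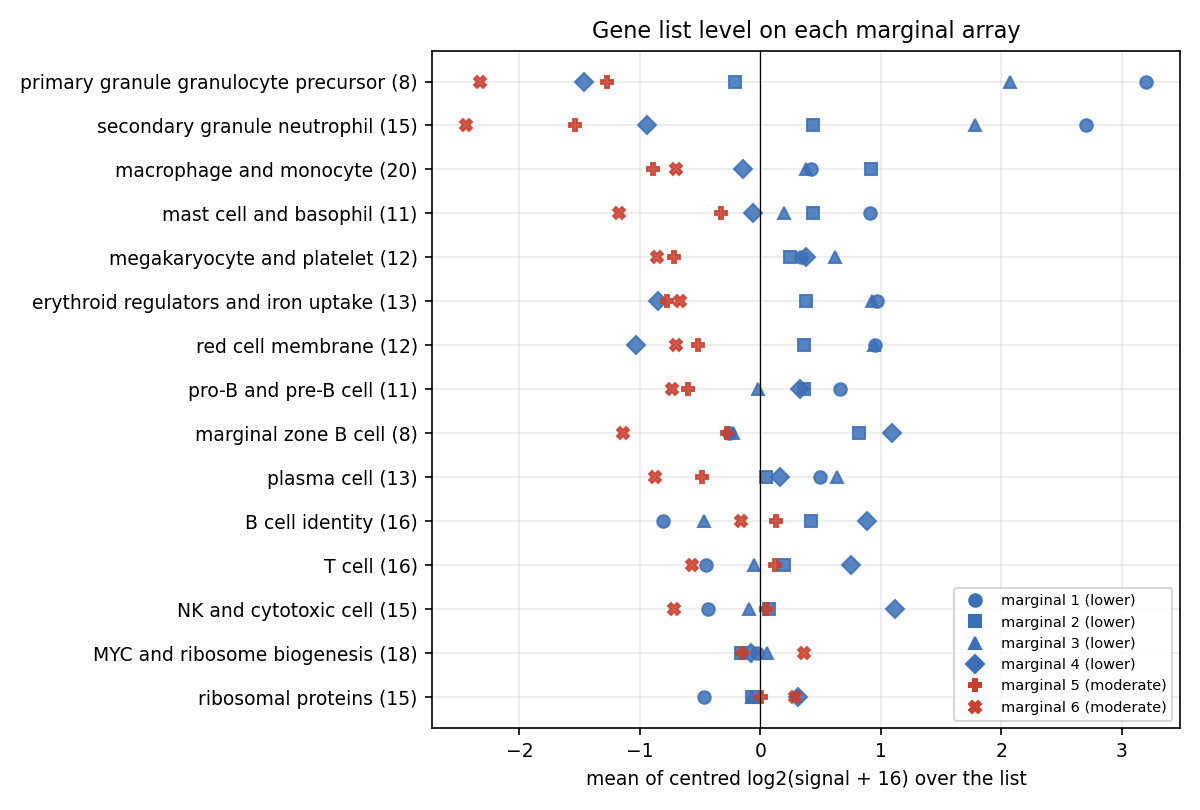
Mean over each list of log2(signal + 16), centred for each gene on its mean over the 6 arrays, with the number of measured genes in parentheses; blue marks the 4 lower and red the 2 moderate arrays. In the neutrophil list marginal 1 and 3 are highest, marginal 4 is the lowest of the lower arrays, and both moderate arrays are below it.

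The remaining falls under the rule for named genes came from genes of varied roles. Itgb5, an integrin beta chain, fell from 185, 157, 101 and 158 to 8.6 and 4.9, and the other 3 of its 4 probe sets were lower without a call. The brightest Itgb5 probe set differed by only -0.44 (limma adjusted p 0.749), and its grades overlapped. Tsc22d1, a leucine zipper protein induced by TGF-beta, fell in 4 of 6 probe sets, the brightest from 1886, 1445, 1280.1 and 848 to 168 and 174 (-2.83, SE 0.33, limma adjusted p 0.0116). Tmem176b, a membrane protein of myeloid and dendritic cells, fell from 1395, 1537, 1190.5 and 1237 to 376 and 144. Igfbp4, an insulin-like growth factor binding protein, read 2422, 690.3, 317 and 175 and then 3.8 and 8.4. All 6 Igfbp4 probe sets were lower, at -4.71 to -1.21, yet the spread among the lower arrays left the adjusted p of this one at 0.0849. Ptpro, a receptor tyrosine phosphatase, read 126, 196, 114 and 245 and then 10.4 and 14.9 (adjusted p 0.0636). The called genes outside the rule were Rgs2, Cdc42ep3 and Tm6sf1, all lower.

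Programmes of growth and stress showed smaller differences, and no gene named in this paragraph passed the limma threshold. Among 18 genes of MYC and ribosome production 12 were higher, 7 without overlap, with a median of 0.26. Over all genes, 11.5% were higher and 9.63% lower without overlap. Gnl3, a nucleolar GTPase, read 797, 843, 1521 and 1031 and then 1986 and 3091, and Ncl, nucleolin, read 6479, 8368, 7538 and 7777 and then 10380.2 and 12713. Myc read 1798, 708, 1378 and 1504 and then 1302 and 3668, with marginal 6 highest and marginal 5 within the lower arrays, while Mycn read 122, 67.3, 79.0 and 146 and then 15.3 and 11. In the heat shock list 17 of 22 were lower, 8 without overlap (median -0.26). Hspa1a, an inducible HSP70, read 2438, 80.9, 1112 and 116 and then 10.6 and 16.6, a spread over the lower arrays wider than their distance from the moderate ones. Immediate early genes were lower in 18 of 21 (median -0.57), with marginal 1 highest in Zfp36 at 9107 against 1389 to 2009.9 on the other lower arrays. Mitosis genes had 0 of 27 without overlap in either direction, and Brd2 itself read 3498, 2486, 2331 and 3504 and then 3242 and 2340.2 (difference -0.08, adjusted p 0.946).

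Markers of tissue that a tumour sample could carry differed by list. In the liver list 10 of 10 measured genes, and in the skeletal muscle list 11 of 15, stayed below signal 100 on all 6 arrays. The list medians were 0.13 and 0.01. Cyp2e1, a liver enzyme, read 21.3, 12.8, 33.6 and 32.0 and then 34.8 and 35.4. Fewer were that dim in the pancreas list (4 of 9) and the epithelium and skin list (5 of 10), with medians of 0.21 and 0.32. In the adipocyte list 8 of 10 measured genes were below 100 on all 6 arrays, and the median was 0.06. Its summed signal, which came mainly from the remaining genes, ran from 2715 to 10282 on the lower arrays and from 9047 to 9482 on the moderate arrays. In the collagen and matrix list 11 of 19 were below 100, while Fn1, fibronectin, read 1133, 576, 596 and 600.2 and then 172 and 174, and Col14a1, a fibril-associated collagen, read 43.7, 77.8, 110.5 and 151 and then 221 and 704, neither of them called. The part of such tissue in the results above was not tested.

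The calls rested on few arrays. Leaving out 1 array gave between 3 and 22 higher calls and between 0 and 71 lower calls. Without marginal 6 there were 3 higher and 0 lower (limma, with 969 lower at unadjusted p under 0.05), and without marginal 2 there were 4 and 7. Without marginal 4 there were 22 and 71, and without marginal 5 there were 6 and 22. Only Ms4a4b, H2-D1 1450170_x_at and 1427820_at were called in all 6 of these fits, and 0 lower probe sets were. A fit over all 11 arrays, in which the transitional samples also set the spread, called 2 higher and 0 lower (857 lower at unadjusted p under 0.05). The differences among the 6 arrays are unchanged in that fit by construction. Marginal 2 was also the single array of the 6 with Y-linked signal (Eif2s3y at 648 against at most 2.8), so both moderate arrays lacked it, as did 3 of the 4 lower ones. Xist, a transcript of female cells, read 7450, 1.8, 4361 and 2619 and then 12480 and 777.6. Marginal 6 was therefore the lowest in Xist of the arrays without Y-linked signal. Array correlations were 0.941 between the moderate arrays, 0.928 to 0.962 among the lower arrays and 0.907 to 0.939 between grades.

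**Figure D4:**
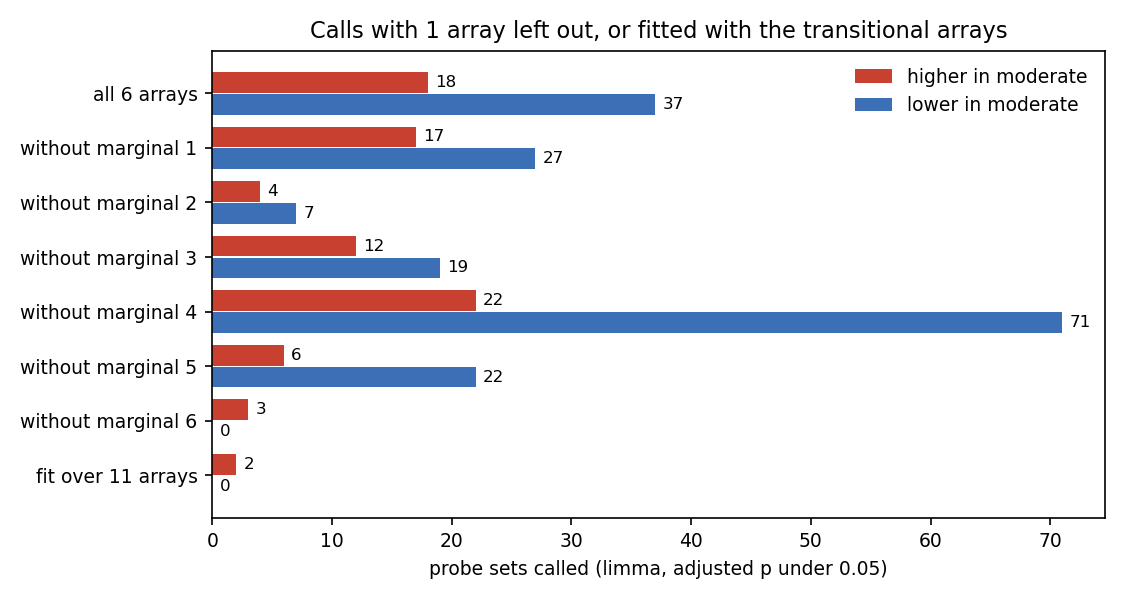
Number of probe sets called by limma (adjusted p under 0.05) higher (red) and lower (blue) in moderate arrays, with all 6 arrays, with each array left out, and fitted with the 5 transitional arrays added. The bars range from 0 to 71, and leaving out marginal 6 or adding the transitional arrays removes all lower calls.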

How the data were processed

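Total RNA of each lymphoma was labelled as biotinylated cRNA and hybridised to 1 Affymetrix expression array, per the labels' protocols. The authors deposited linear array intensities made with MAS5 (submitters' processing notes), and these were used without change. Its version, and any batch, were not given in the sources used here. On all arrays the 2% trimmed mean was 500.2, so a shift of most transcripts in 1 direction could not be seen, and intensities carry no read depth, so the number of arrays limits the precision. Of 22690 probe sets, 64 AFFX controls were left out; 20380 of the remaining 22626 had 1 gene in the platform annotation, updated to RefSeq GRCm38.p6, 691 several and 1555 none. No pair of the 11 arrays held identical values, and 0 columns lacked a sample.

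Groups follow the splenomegaly grade in the labels. The offset 16 was added before log2, and limma 3.58.1 in R 4.3.3 (lmFit, then eBayes with its trend option; two-sided p-values adjusted by Benjamini-Hochberg over all 22626) was run on the 6 marginal arrays. Fold differences are on the log2(signal + 16) scale and understate those of dim genes. Named genes have 1 symbol. In the upper 60% by mean, they are the 15 in each direction with the largest gap. Without that filter, they are at most 15 called genes per direction by p, and the 2 members of each described list with the largest gap or, failing that, difference. Brd2, Cd5, Itgam and Ptprc were added. Further list members and genes named beside them, such as Cd3d, Camp and Cd68, were chosen after their values were seen. For lists, the brightest probe set of each gene was used. The comparison, the lists and the rule were chosen with earlier results of these data known. On simulated data with 22626 probe sets, the limma comparison called 54 of 100 sets changed by 2 log2 units, 80 of 100 changed by 4, and 4 of 22426 unchanged. The simulated noise was normal and independent between probe sets. It held no genes that move together on an array, so these counts are not error rates of the real comparison. Alternatives covered the offset, normalization, filter, eBayes settings, array weights, grade as a trend, all 11 arrays, the gap and each array left out.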

Additional observations from a re-analysis of the deposited data

Results flagged for a closer look

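In the 4 lower arrays, 9 of 163 values tested had 1 array far from the other 3 (Dixon's criterion), and chance flags about 1 in 20. Marginal 1 stood apart in 5 of them. Its signal was 260.8 for Cd93 against 77.0 to 94.1, 1133 for Fn1 against 576 to 600.2, and 1176 for Klf4 against 176 to 202. For the glucose transporter Slc2a3 it was 4517 against 1217 to 1479, and for Ndufa2, a subunit of respiratory complex I, 2264 against 3189 to 3339. Marginal 2 stood apart with 872 for C1qc, a complement subunit made by macrophages, against 131 to 148, and with 84.8 for E2f3 against 122 to 129.8. Marginal 4 stood apart with 2.8 for Krt14 against 28.1 to 33.8, and with a liver list level of 0.11 against -0.12 to -0.08.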

How the results depend on the processing

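No paired analysis was possible because the labels used here give no pairing of marginal samples 5 and 6 with marginal samples 1 to 4. The limma calls, 18 higher and 37 lower, came to 17 and 56 with an offset of 1, 17 and 20 with an offset of 64, 24 and 59 in the upper 60% by mean, 10 and 22 without the intensity trend, 48 and 96 with grade as a linear trend, and 2 and 0 with all 11 arrays. In the trend fit 7 of the higher and 7 of the lower calls were shared with the main comparison. With quantile normalization (15 and 32), median scaling (20 and 41), array weights (14 and 32) and mild arrays alone as the lower group (17 and 27), both counts stayed within 1.5 times. Mild arrays alone is the same fit as leaving out marginal 1. Leaving out 1 array gave 3 to 22 higher and 0 to 71 lower. The probe sets with a gap of at least 1, 99 higher and 151 lower, came to 213 and 297 with an offset of 1, and 47 and 87 with an offset of 64. A gap above 0 gave 2703 and 2140, and a gap of at least 2 gave 11 and 26. Leaving out 1 array gave 134 to 736 higher and 185 to 718 lower, since fewer arrays must then be apart. No named gene changed direction while called. The list medians that kept their sign in all settings run included those of the neutrophil (-3.77 to -2.48), macrophage (-1.49 to -0.83), platelet (-1.49 to -0.83) and plasma cell (-0.98 to -0.54) lists. With 2 moderate arrays, grade, sign of illness and differences between individual tumours cannot be told apart, and signals under about 100, which 44.5% to 47.6% of probe sets had on each of the 6 arrays, carry little information on change.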
